A study of Mus musculus with 4 samples.

Results

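The ephrin, Slit and Netrin guidance genes are 34 mouse genes that encode 22 cell-surface receptors and 12 ligands. Members were taken from a list of gene names within the EphA, EphB, Robo and Unc5 receptors and the ephrin-A, ephrin-B, Slit and Netrin ligands. The list does not hold each gene of these families, and Efnb1 and other Netrin genes were counted apart. Each member was placed on the mm9 genome with the GENCODE annotation, among 22202 protein-coding genes. Gene bodies extended by 5 kb upstream are called loci, and a start site was any annotated start of a protein-coding transcript with 2.5 kb on each side. The list states no threshold on a measured value, but it was drawn up with earlier results of these data known.

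RYBP, a subunit of a Polycomb repressive complex 1, was mapped by chromatin immunoprecipitation and sequencing (ChIP-seq) with an anti-DEDAF antibody, DEDAF being another name of RYBP. The samples were 2 RYBP ChIP replicates and 2 inputs from wild-type embryonic stem cells of C57Bl/6 X Sv129 background. These cells were differentiated in vitro as embryoid bodies to day 3.75 and sorted for FLK1, the VEGF receptor that marks mesoderm with blood and endothelial potential. A slightly later day stands in the study's methods for RYBP, and the design text names SCL ChIP where title and antibody name RYBP. The cells carried no deletion or treatment, and no group without RYBP entered the comparison. The inputs were not analysed here as separate files. The design text describes the replicates as separate differentiations. The files hold peaks and no expression values, so the sorted cells could not be checked against their markers, and occupancy in a fraction of the cells cannot be told apart from weaker occupancy in all of them.

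Eph receptors are receptor tyrosine kinases that bind membrane-tethered ephrins on neighbouring cells, and both partners can signal. Slits are secreted proteins read by Robo receptors, and Netrins are secreted, laminin-related proteins read by Unc5 receptors and by DCC. The families are best known from the guidance of axons, and in the vascular system ephrin-B2 marks arterial and EphB4 venous endothelium. RYBP-containing complexes monoubiquitylate histone H2A and are commonly found at promoters rich in CpG dinucleotides.

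All 34 members carried a merged RYBP region at a start site, against 53.4% of all protein-coding genes. The DNA just before the most 5′ start of the members ranged from very CpG-rich to CpG-poor. The stretches of 250 bases that precede the most 5′ annotated start on the transcribed strand are printed for 6 members, 5′ to 3′ from mm9, with CpG dinucleotides in capitals. The median protein-coding gene held 9.0 CpG in this stretch. The median was 16.0 for genes with a merged region at a start site and 3.0 for genes without. Ephb3 (chr16:21204578-21204827, + strand), Unc5a (chr13:55050522-55050771, + strand) and Ntn1 (chr11:68214326-68214575, - strand) are shown because their peaks were among the strongest of the members, and they held 14, 25 and 6 CpG. Ephb1, which ranked above them, was left out because its stretch overlaps an annotated exon.
Ephb3: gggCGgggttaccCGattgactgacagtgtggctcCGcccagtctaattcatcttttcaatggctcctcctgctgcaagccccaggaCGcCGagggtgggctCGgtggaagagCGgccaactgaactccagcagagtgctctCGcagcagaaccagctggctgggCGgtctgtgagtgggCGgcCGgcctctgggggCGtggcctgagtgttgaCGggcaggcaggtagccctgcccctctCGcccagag
Unc5a: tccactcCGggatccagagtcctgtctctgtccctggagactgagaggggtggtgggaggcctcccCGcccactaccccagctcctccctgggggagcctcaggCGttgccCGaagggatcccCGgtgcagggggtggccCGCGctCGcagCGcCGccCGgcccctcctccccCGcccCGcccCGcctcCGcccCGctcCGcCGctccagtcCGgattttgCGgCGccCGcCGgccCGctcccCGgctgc
Ntn1: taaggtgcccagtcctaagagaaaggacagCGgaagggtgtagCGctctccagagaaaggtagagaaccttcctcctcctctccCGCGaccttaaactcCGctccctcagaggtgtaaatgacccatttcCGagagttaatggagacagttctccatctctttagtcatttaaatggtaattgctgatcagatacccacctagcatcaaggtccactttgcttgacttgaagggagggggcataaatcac
Epha1 (chr6:42323268-42323517, - strand) and Robo4 (chr9:37209232-37209481, + strand), with 9 and 2 CpG, are shown because they were the 2 members without a peak in replicate 1. Their values were known when they were picked, in place of members without any region, of which there were 0.
Epha1: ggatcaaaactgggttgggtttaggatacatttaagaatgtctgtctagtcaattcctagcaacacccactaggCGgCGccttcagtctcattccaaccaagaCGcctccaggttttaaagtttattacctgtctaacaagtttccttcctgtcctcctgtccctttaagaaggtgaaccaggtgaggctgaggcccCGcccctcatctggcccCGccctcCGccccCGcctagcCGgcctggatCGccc
Robo4: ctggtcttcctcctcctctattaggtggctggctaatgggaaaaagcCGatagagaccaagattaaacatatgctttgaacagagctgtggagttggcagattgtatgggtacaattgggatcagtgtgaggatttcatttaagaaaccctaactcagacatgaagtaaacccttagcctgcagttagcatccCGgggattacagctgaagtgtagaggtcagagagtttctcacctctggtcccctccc
Efnb2 (chr8:8661240-8661489, - strand), the gene of the arterial ligand ephrin-B2, is shown with 28 CpG, more than 91.5% of protein-coding genes.
Efnb2: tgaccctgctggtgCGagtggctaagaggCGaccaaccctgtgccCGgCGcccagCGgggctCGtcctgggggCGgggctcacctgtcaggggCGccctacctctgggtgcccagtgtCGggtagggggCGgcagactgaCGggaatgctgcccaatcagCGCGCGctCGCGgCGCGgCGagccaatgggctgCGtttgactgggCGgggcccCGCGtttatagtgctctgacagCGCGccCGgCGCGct

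The first comparison asked how widely RYBP was called at these genes. A merged RYBP region lay in 34 of 34 member loci (exact 95% interval of the share 89.7 to 100%, covering counting error over genes only), where 57.1% of all protein-coding loci held one. A region formed by peaks of both replicates lay in 32 of 34 (94.1%, interval 80.3 to 99.3%), against 38.9% of all loci. Replicate 1 alone gave 32 and replicate 2 alone 34 loci, against 43.9% and 53.7%. Genes are not replicates of a condition, and no test was made over the members. Member genes were long, with a median of 87750 bp against 15525 bp for all protein-coding genes, and a long locus has more room for a region.

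The start-site window does not grow with the gene. Here too 34 of 34 members were occupied, against 53.4% of all genes, and 32 of 34 by a region of both replicates, against 36.8%. Replicate 1 gave 32 and replicate 2 gave 34 members, against 40.4% and 50.5% of all genes. Members had a median of 2.5 annotated start sites and all genes 1.0, which gives them more chances of a region. At the most 5′ start site alone, 34 of 34 members and 51.8% of all genes had a merged region. Of the 80 start sites annotated for the members, 72 had a merged region within the window. The other 8 belonged to Epha6, Ephb2, Ephb3, Ephb6, Efna5, Efnb2, Slit2 and Unc5d, each of which had an occupied start site elsewhere.

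Occupancy went with CpG content over all genes. A start site was called CpG-rich at 3 or more CpG per 100 bp within 500 bp on either side, which held for 33 of 34 members and 60.1% of all genes. Of the CpG-rich genes in the annotation, 81.8% were occupied at a start site and 58.2% by a region of both replicates. The members reached 33 of 33 and 32 of 33. Of the genes without a CpG-rich start site, 10.6% were occupied, and the 1 such member, Robo4, was among the occupied. CpG content was not held constant beyond this split, and its part in the occupancy of the members was not tested.

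Receptors and ligands did not separate by the presence of RYBP. All 22 receptors (interval 84.6 to 100%) and all 12 ligands (interval 73.5 to 100%) held a merged region, at the locus and at a start site. Over all protein-coding genes, 57.1% of loci held one and 53.4% of genes had one at a start site. A region of both replicates was found at 20 of 22 receptors (90.9%, interval 70.8 to 98.9%) and 12 of 12 ligands. Over all genes, 38.9% of loci held such a region and 36.8% of genes had one at a start site. The shares of the roles were not compared by a test. The 2 members without such a region, Epha1 and Robo4, were both receptors.

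Fold enrichment, the authors' linear ratio of the ChIP pile-up to the local background, was taken as the highest value of a peak in each locus. Its median over the members was 3.85 in replicate 1 and 4.23 in replicate 2, where all loci with a peak had 3.53 and 3.92. Members above those medians numbered 21 of 32 in replicate 1 and 25 of 34 in replicate 2. Receptors had medians of 3.65 and 4.16 and ligands of 3.86 and 4.30. The ligand median was higher by 0.204 in replicate 1 and 0.133 in replicate 2. This order depended on the peaks taken. With only peaks of a −log10 q (the caller's false discovery rate) of at least 2, receptors had 3.92 and ligands 3.87 in replicate 1. In replicate 2 they had 4.21 and 4.32. The roles overlapped in each replicate, with receptors from 2.89 to 5.53 and ligands from 3.06 to 4.52 in replicate 1, and from 3.25 to 7.79 and from 2.97 to 6.55 in replicate 2. The difference was not tested. A highest value can rise with the number of peaks in a locus, and gene length was not held constant. Median gene length was 108438 bp for receptors, 75166 bp for ligands and 15525 bp for all protein-coding genes. Fold enrichment in replicate 2 was higher than in replicate 1 by a median of 0.513 over all loci with a peak in both, so levels were compared within a replicate.

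Medians of the 8 families ranged more widely than those of the 2 roles. Median fold enrichment in replicates 1 and 2 was 3.49 and 4.07 for the EphA receptors, 4.21 and 4.51 for the EphB receptors, and 3.48 and 4.02 for the Robo receptors. The Unc5 receptors had 4.25 and 4.84. Among ligands it was 3.87 and 4.27 for ephrin-A, 4.05 and 4.15 for ephrin-B, 3.85 and 4.23 for Slit, and 4.08 and 5.53 for the Netrins. Robo and EphA were the lowest in both replicates. In replicate 1 the Robo receptors, from 2.89 to 3.53, lay wholly below the EphB receptors (3.58 to 5.53), the ephrin-B ligands (3.58 to 4.52) and the Netrins (3.85 to 4.31). In replicate 2 the Robo receptors, from 3.8 to 4.58, overlapped all 3. Families had 2 to 9 genes, and medians of so few genes vary more than those of the larger roles. No difference between families was tested. Across the 32 members with a peak in both replicates, Pearson's r between the replicates was 0.612 and Spearman's rho 0.633. Over 8984 loci they were 0.530 and 0.488. Replicate 2 was the higher in 26 of these 32 members (81.2%) and in 78.3% of all such loci, but in only 2 of the 5 EphB receptors.

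**Figure D1:**
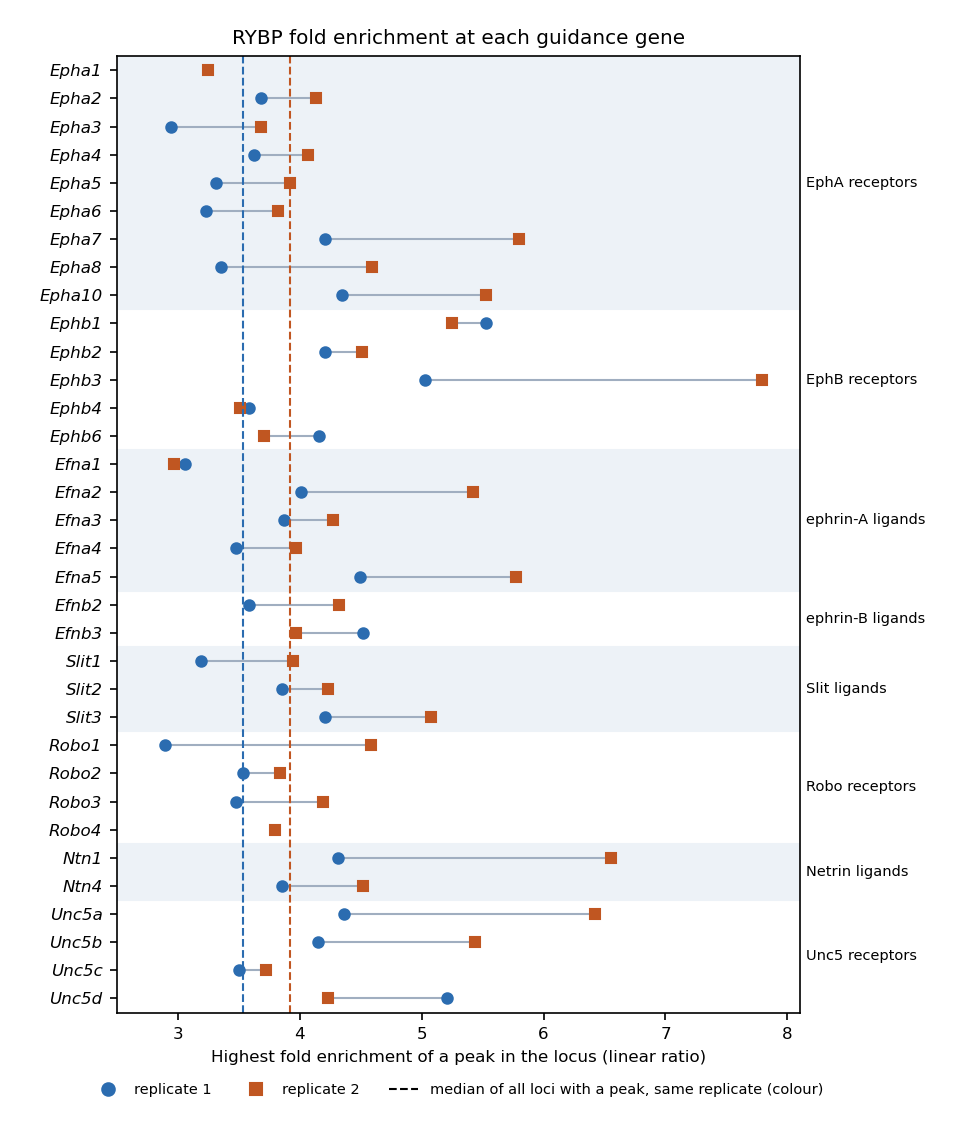
Highest fold enrichment (linear ratio, horizontal axis) of a RYBP peak in each of the 34 loci, with a circle for replicate 1, a square for replicate 2 and a line joining them. Dashed lines mark the medians of all loci with a peak, 3.53 and 3.92, in the colour of the replicate. Ephb3 lies farthest to the right at 7.79 in replicate 2, and Epha1 and Robo4 have a square only.

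The EphB receptors, the usual partners of the ephrin-B ligands, included the strongest members. Members were ranked by the smaller of their highest −log10 q (the caller's false discovery rate) in the 2 replicates, which was larger for Ephb1 than for any other member, at 8.01. Ephb1 (chr9:101824458-102257023, − strand) had fold enrichments of 5.53 and 5.25 with −log10 q of 8.75 and 8.01. Its peak lay 59 bp inside the gene from the start (chr9:102254155-102256964). The other 2 regions, 94204 and 359497 bp downstream in introns, were called in replicate 2 only, at 3.51 and 3.03. Ephb3 (chr16:21204828-21223378, + strand) had 5.03 and 7.79, with −log10 q of 8.0 and 12.4. Its value in replicate 2 exceeded that of 99.7% of all loci with a peak, and its region over a start site spanned 1317 bp (chr16:21204833-21206149).

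Ephb2 (chr4:136203454-136391903, − strand) held 8 merged regions, more than any other member. Only 2 of them had peaks in both replicates. One covered the start site over 3722 bp (chr4:136390053-136393774) with 3.90 and 4.51. The other lay in an intron, 60895 bp upstream of the nearest annotated start of the gene (chr4:136310850-136312537), with 4.21 in replicate 1 and 3.14 in replicate 2. It was the stronger of the 2 in replicate 1 and the weaker in replicate 2. The highest −log10 q at the locus was 4.81 in replicate 1 and 5.42 in replicate 2. Ephb6, whose protein lacks kinase activity, had 4.16 and 3.71 at 1 region.

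Ephb4 (chr5:137791337-137819897, + strand), the receptor of venous endothelium, had fold enrichments of 3.58 and 3.51 and −log10 q of 3.29 and 1.98. Its 2 regions were short and both were called in each replicate. One of 535 bp (chr5:137791322-137791856) covered a start site, with 3.56 and 3.0. The other, of 378 bp, ended 999 bp before it (chr5:137789961-137790338), with 3.58 and 3.51. When each member was taken by its widest start-site region, that of Ephb4 was the narrowest.

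Efnb2 (chr8:8617434-8661239, − strand), the arterial ligand that binds EphB4, had fold enrichments of 3.58 and 4.32, with −log10 q of 4.79 and 6.57. Its 1 region (chr8:8659538-8661867) covered the start site over 2330 bp and held 9.44 CpG per 100 bp. A start of 4921522P10Rik also lay within 2.5 kb of it, so the region cannot be given to Efnb2 alone. Replicate 1 gave Efnb2 and Ephb4 the same value to 3 digits. In replicate 2 Efnb2 was higher, and the SD of its 2 replicates was 0.525 about a mean of 3.95, against 0.0514 about 3.55 for Ephb4. With 2 values each, the difference between the pair was not tested. Efnb3, the other ephrin-B ligand here, had 4.52 and 3.97 at 1 region of 1879 bp.

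The EphA receptors bind mainly the glycolipid-anchored ephrin-A ligands. Epha10 (chr4:124558143-124595044, + strand) held 7 regions, of which 3 had peaks in both replicates, with highest fold enrichments of 4.35 and 5.53 and −log10 q of 5.46 and 7.39. The 2 values came from different regions. In replicate 1 the highest peak lay at the most 5′ start (chr4:124558145-124559986), where replicate 2 gave 3.72. In replicate 2 it lay over a coding exon 8216 bp from the nearest start (chr4:124571259-124573392), where replicate 1 gave 3.62. Epha7 followed with 4.21 and 5.80. Epha2, Epha4 and Epha8 lay between 3.35 and 3.68 in replicate 1 and between 4.07 and 4.59 in replicate 2. Epha5 had 3.31 and 3.92 and Epha6 3.23 and 3.82. Epha3 ranked last among members called in both replicates, with 2.94 and 3.68 and a −log10 q of 1.07 in replicate 1.

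Epha1 (chr6:42308486-42323267, − strand) had a peak in replicate 2 only, of fold enrichment 3.25 and −log10 q 1.91. The region of 639 bp lay 95 bp inside the gene (chr6:42322534-42323172). Its start site was CpG-rich, at 4.20 CpG per 100 bp, the lowest value of any CpG-rich member.

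Among the ephrin-A ligands, Efna5 (chr17:62953533-63230666, − strand) was the strongest. It had 4.49 and 5.77, with −log10 q of 5.44 and 7.55, in 1 region of 4699 bp (chr17:63228708-63233406). Its start site, at 12.3 CpG per 100 bp, was the most CpG-rich of all members. Efna2 had 4.01 and 5.42. Its second region began 9063 bp from the start, ran over coding exon sequence and went past the end of the gene (chr10:79651290-79654973). It joined a replicate 1 peak of 4.01 with a replicate 2 peak of 4.02. The replicate 2 peak lay wholly past the gene end, so within the locus this region rests on replicate 1. Efna1, Efna3 and Efna4 lie side by side on chromosome 3, with starts 56.9 kb apart from the first to the last, and no region was shared between them. Efna3 had 3.87 and 4.27 and Efna4 3.48 and 3.97. Efna1 had 3.06 and 2.97, the lowest value of any member in replicate 2, but over a region of 5229 bp.

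Each of the 3 Slit genes had a start-site region called in both replicates, against 36.8% of all genes. Slit3 had 4.21 and 5.08, Slit2 3.85 and 4.23, and Slit1 3.19 and 3.94. Beyond the start sites, Slit1 had 3 regions and Slit3 had 2, and each of these was called in 1 replicate only. The Robo receptors had lower medians than the Slits in both replicates, a difference that was not tested. The Robo median rests on 3 genes in replicate 1, where Robo4 had no peak, and on 4 in replicate 2. Robo2 had 3.53 and 3.84 and Robo3 3.48 and 4.19. Robo1 had 2.89, the lowest value of replicate 1, and 4.58 in replicate 2.

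Robo4 (chr9:37209482-37221608, + strand), the Robo receptor of endothelial cells, had no peak in replicate 1. In replicate 2 it had a region of 641 bp that ended 496 bp before the start (chr9:37208346-37208986), with a fold enrichment of 3.26 and −log10 q of 1.53. A second region, of 284 bp over a coding exon (chr9:37215737-37216020), had 3.8 and 2.80. Its start site held 1.1 CpG per 100 bp. The start of Robo3 lies 31.3 kb away on the opposite strand, held 4.70 CpG per 100 bp, and carried a merged region of 5785 bp that joined peaks of both replicates.

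Ntn1 (chr11:68022866-68214325, − strand), the gene of netrin-1, had fold enrichments of 4.31 and 6.55 and −log10 q of 5.64 and 11.5. Its peak lay over an internal start (chr11:68197023-68205591) in a region of 8569 bp, the widest of all members. The most 5′ start had a region of its own, 46 bp inside the gene (chr11:68212401-68214279), with 3.51 and 5.69. Thus in both replicates the internal start was the stronger. The stretch upstream of the most 5′ start, printed above, held only 6 CpG, and CpG content rose from 4.10 per 100 bp at that start to 10.3 at the richest start of the gene. Ntn4 (chr10:93103426-93209952, + strand) had 3.85 and 4.52, with −log10 q of 4.83 and 4.85, in 1 region (chr10:93102754-93105250).

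The Unc5 receptors, which mediate repulsion from Netrins, were called at a start site in both replicates in 4 of 4 genes. Over all genes the share was 36.8%. Unc5a (chr13:55050772-55107379, + strand) had 4.36 and 6.42, with −log10 q of 6.06 and 13.0, over a start-site region of 3578 bp (chr13:55049366-55052943). It held 7 regions, of which 1 other was called in both replicates, in an intron 5896 bp from the start (chr13:55056668-55058528) at 3.91 and 3.63. Unc5b, which is expressed in endothelium, had 4.15 and 5.44 and Unc5c 3.50 and 3.72. Unc5d was higher in replicate 1, at 5.21, than in replicate 2, at 4.23.

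The positions of the regions were compared next. The members held 84 merged regions, 60 at receptors and 24 at ligands, which is 2.73 per receptor and 2.00 per ligand. A single region was found at 16 members. Epha6, with 952049 bp the longest member, had 1 region, and Epha10, with 36902 bp, had 7. At receptors, 27 regions lay at a start site, 23 in an intron, 8 over a coding exon and 2 upstream. At ligands it was 14, 6, 3 and 1. Regions covered the start itself in 12 of 12 ligands and 19 of 22 receptors.

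Reproducibility went with position. Of 41 member regions at a start site, 35 had peaks in both replicates (85.4%), against 62.6% of all start-site regions in the genome. Of 43 away from a start site, 5 did (11.6%), against 20.7% of all such regions. Those 5 lay at Epha10, Ephb2, Unc5a, Efna2 and Efna3, and the one at Efna3 (chr3:89119404-89121433) had 3.14 and 3.8. In the one at Efna2 the replicate 2 peak lay past the end of the gene. Of all 84, 13 were called in replicate 1 only and 31 in replicate 2 only. At receptors 25 of 60 regions were in both (41.7%) and at ligands 15 of 24 (62.5%), where all regions gave 44.2%. Of the 43 regions away from a start site, 11 were called in replicate 1 only and 27 in replicate 2 only, so most such calls rest on a single replicate.

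The peaks were then counted in each replicate separately. Replicate 1 had 36 peaks at receptors (1.64 per gene) and 20 at ligands (1.67 per gene), so the roles were alike. Replicate 2 had 53 at receptors (2.41 per gene) and again 20 at ligands (1.67). The higher number of merged regions per receptor thus came from replicate 2. At receptors 72.2% of replicate 1 peaks and 50.9% of replicate 2 peaks lay at a start site, and at ligands 70.0% and 65.0%. The order of the roles was thus not the same in the 2 replicates. Median fold enrichment of peaks at member start sites was 3.58 and 4.10, and of those away from them 3.14 and 3.24.

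**Figure D2:**
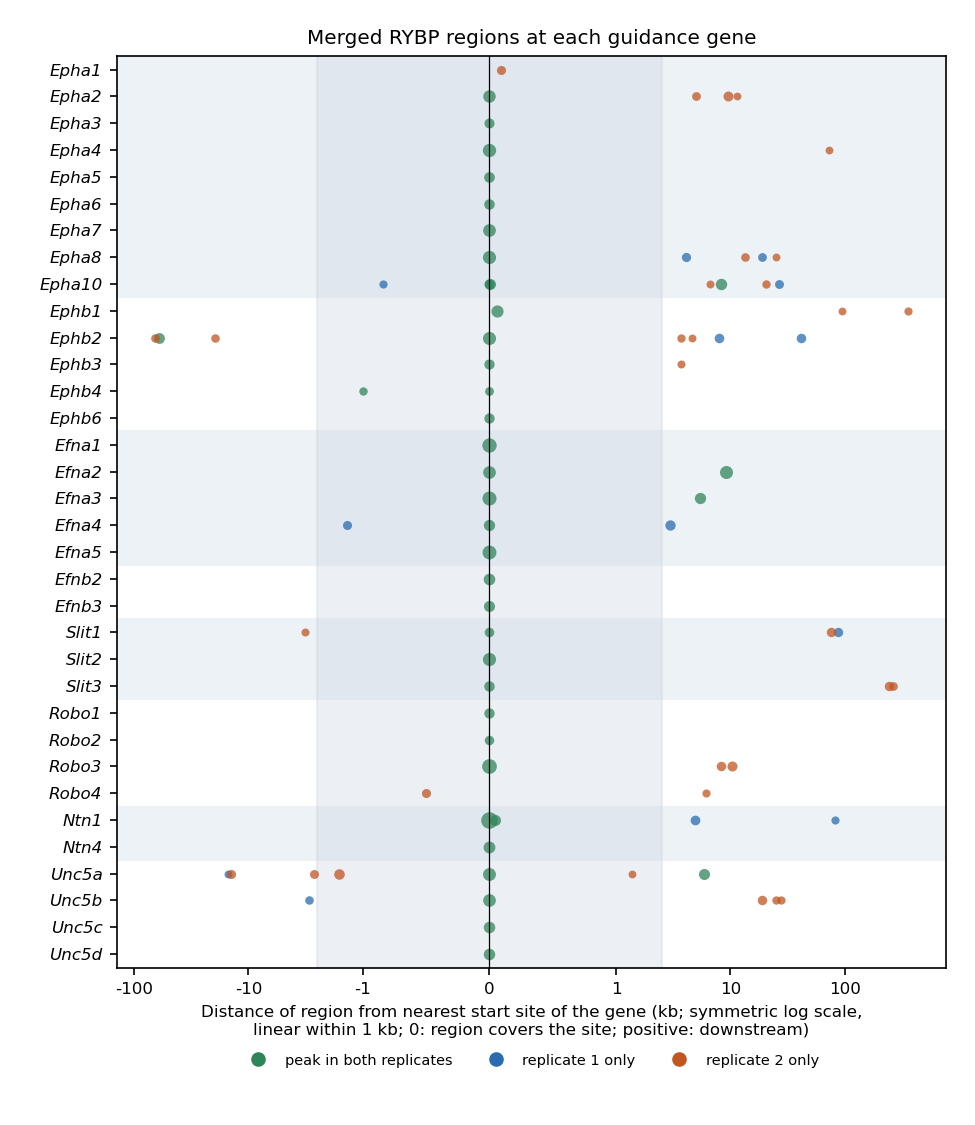
Position of each of the 84 merged regions relative to the nearest annotated start of its gene (kb, symmetric log axis, positive downstream). Colour gives the replicates that called the region, the size of a point grows with the width, and the shaded band marks 2.5 kb on each side. Most green points, regions of both replicates, sit at or next to 0, and 5 lie outside the band.

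The regions at start sites were compared by width, which had a larger median at ligands than at receptors. The widest start-site region of a gene had a median of 2909 bp at ligands and 2032 bp at receptors, against 1070 bp over all 11858 genes with such a region. It was wider than that median in 11 of 12 ligands and 18 of 22 receptors. The exceptions were Slit1 (894 bp), Robo2 (831 bp), Robo4 (641 bp), Epha1 (639 bp) and Ephb4 (535 bp). Ranges overlapped, from 894 to 8569 bp at ligands and from 535 to 5785 bp at receptors. Peaks called in each replicate had the same order, with medians at start sites of 2058 bp at ligands and 1048 bp at receptors in replicate 1 and of 2330 and 1488 bp in replicate 2. By family the order was mixed. The Netrins (5533 bp) and ephrin-A ligands (4699 bp) had the largest medians, followed by the Unc5 receptors (2768 bp) and the ephrin-B ligands (2104 bp). Slit ligands, at 1420 bp, lay below the receptor median and below the EphA receptors (1842 bp), and were close to the EphB (1331 bp) and above the Robo receptors (1105 bp). The difference between the roles was not tested.

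Regions of 4 kb or more were found at Ntn1, Robo3, Efna1, Efna3 (4873 bp) and Efna5, 4 ligands and 1 receptor. They made up 5.95% of member regions, against 2.87% of all regions. Width and fold enrichment did not always go together, since Efna1 combined 5229 bp with 3.06 and 2.97, and Ephb3 combined 1317 bp with 5.03 and 7.79. A merged region is the union of both replicates and is at least as wide as any peak in it. It can also join several peaks of 1 replicate, so its width need not be that of a single call. This was so at Ntn1, where 4 peaks of replicate 2 lay in 2 regions, and at Robo3, where 4 lay in 3.

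**Figure D3:**
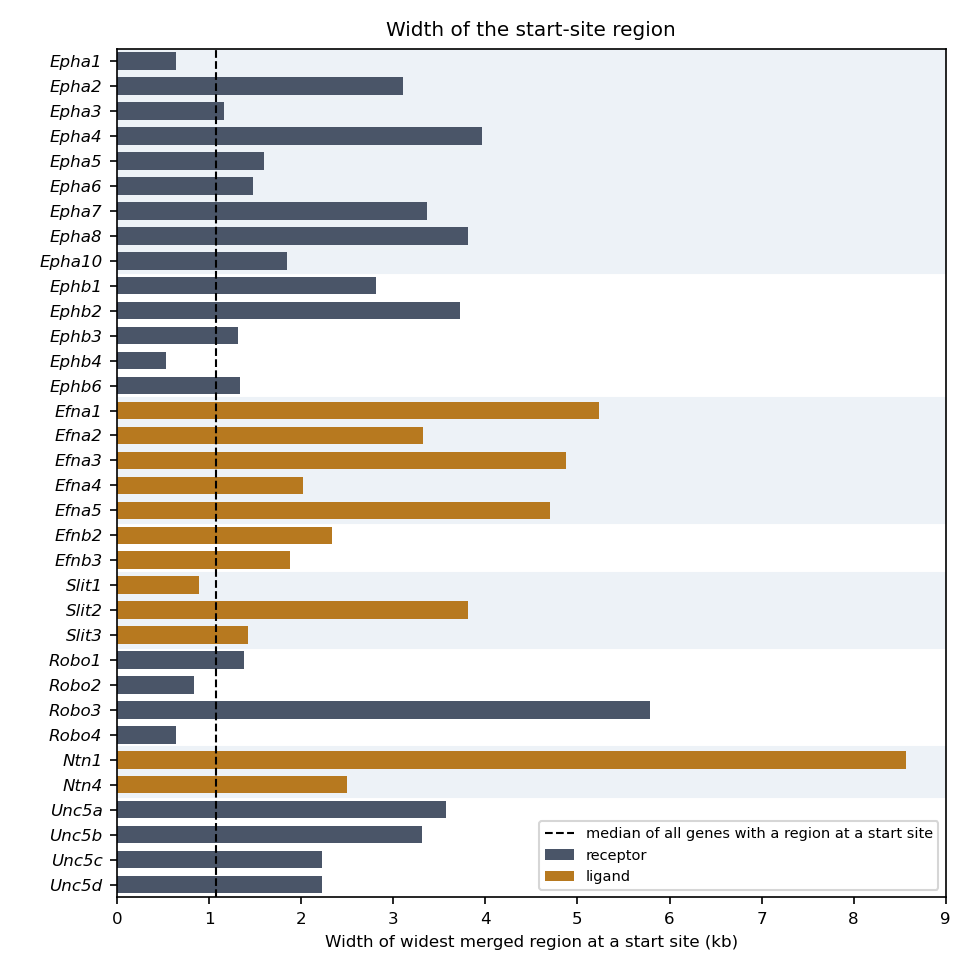
Width in kb of the widest merged region at a start site of each member, grey for receptors and ochre for ligands. The dashed line marks the median of all genes with such a region, 1070 bp. Ntn1 is the widest at 8569 bp, and 5 members fall short of the line.

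Within the members, start sites richer in CpG tended to have higher fold enrichment. Pearson's r was 0.328 and Spearman's rho 0.425 over 32 members in replicate 1, and 0.599 and 0.715 over 34 in replicate 2. Over all genes with a peak at a start site they were 0.229 and 0.245 (8979 genes) and 0.286 and 0.293 (11216 genes). These are descriptions across genes that share 2 libraries and their base composition, and the relation was weaker in replicate 1. Ligands had a median of 8.64 CpG per 100 bp at their richest start site and receptors 6.79, against 4.60 for all genes. Efnb2, at 12.1, was among the richest but was not among the strongest, and Epha8, at 10.9, had 3.35 and 4.59.

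**Figure D4:**
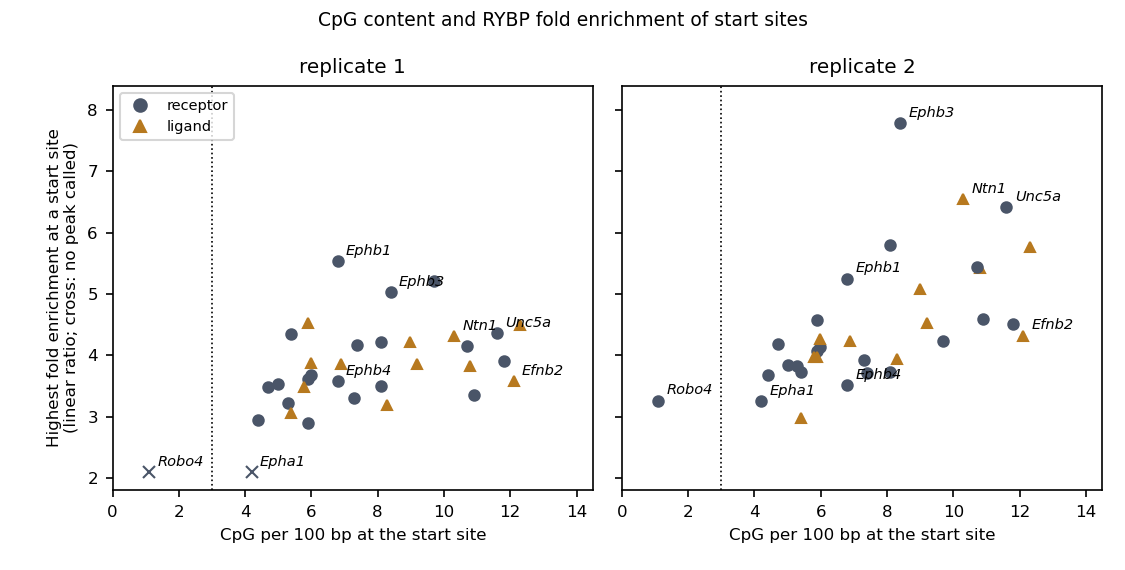
Highest fold enrichment of a peak at a start site (linear ratio) against CpG per 100 bp at the richest start site, for replicate 1 (left) and replicate 2 (right), with circles for receptors and triangles for ligands. Crosses mark members without a peak and the dotted line the limit of 3 CpG per 100 bp. Robo4 alone lies left of that line, and Ephb3, Ntn1 and Unc5a are the highest in replicate 2.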

How the data were processed

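RYBP ChIP-seq was analysed from peak lists in mouse FLK1+ mesoderm, with 2 RYBP ChIP replicates taken as 1 group from the labels. According to the methods of the study and the submitters' processing notes, chromatin was cross-linked with EGS and then formaldehyde, paired-end reads were aligned to mm9 with Bowtie 1.1.2b, and the authors called broad peaks with MACS2 2.0.10 in each replicate (14794 and 18154 peaks). For each peak the deposited lists give a fold enrichment (a linear ratio), −log10 of the p-value and of the q-value, and a score, all as the authors' caller computed them. The authors' merged list has positions and no values. All 22409 regions equalled the union of both lists once replicate 2 starts were moved by 1 bp, so a region may rest on 1 replicate, and printed starts may be off by 1 bp. Positions are counted from 1.

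The peak lists carry no read depth, so precision per peak is unknown here, and how depth or duplicate removal affected the number of peaks was not tested. Intervals for shares are exact (Clopper-Pearson).

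Genes were the protein-coding genes of the GENCODE annotation on NCBIM37 (mm9), chromosomes 1 to 19 and X. Overlaps of 1 bp or more counted. Python 3.11.15, numpy 2.4.6 and scipy 1.17.1 were used, and the overlap code was checked against brute-force counts on simulated data. Members and lists were chosen with earlier results of these data known. Full values were given for Efnb2 and Ephb4, the 8 members with the largest smaller −log10 q, the member with most regions, and members called in 1 replicate. Others were given in groups. Sequences were to show 2 members without a region at the start site. As none existed, Epha1 and Robo4 took their place. Alternatives were the regions of both replicates, each replicate alone, stricter −log10 q or fold enrichment, other windows and other CpG limits.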

Additional observations from a re-analysis of the deposited data

How the results depend on the processing

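All 73 alternative values kept their main value within the limits set. The order of the receptor and ligand medians of fold enrichment in replicate 1 nevertheless turned at a −log10 q of at least 2, with 3.92 and 3.87. Member loci with a region ranged from 32 to 34 and member start sites from 31 to 34. Receptor loci ranged from 20 to 22 and ligand loci from 11 to 12. At a −log10 q of at least 2, Epha1 and Efna1 lost their locus, and Robo4 also lost its start site. Leaving out replicate 1 gave 34 member loci, and leaving out replicate 2 gave 32, without Epha1 and Robo4. CpG-rich members numbered 33 at limits of 2, 3 and 4 CpG per 100 bp and 32 at the most 5′ start alone. No paired analysis was possible because only the ChIP replicates entered, and inputs with matching numbers were left out. With 2 replicates and peak lists without reads, no difference could be tested, and a locus without a peak is not shown to lack RYBP.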

Other observations

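Other genes of the same pathways were counted as a further list, also drawn up with earlier results of these data known. Of 25 co-receptors, further ligands, modulators and adaptors, among them Dcc, Neo1, Efnb1 and the Flrt genes, 25 held a merged region at the locus and 25 at a start site. In 19 (76.0%, exact 95% interval 54.9 to 90.6%) the locus held a region of both replicates, against 32 of 34 for the guidance genes above, and the intervals overlap. Their median highest fold enrichment was 3.66 in replicate 1 and 4.16 in replicate 2. One further listed gene, Draxin, had no protein-coding transcript in the annotation used.

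Semaphorins, plexins and neuropilins, another guidance system with roles in vessels, were occupied at 28 of 31 loci (90.3%, interval 74.2 to 98%) and at 27 start sites. Over all protein-coding genes these shares were 57.1% and 53.4%. A region of both replicates was found at 23 loci (74.2%, interval 55.4 to 88.1%), against 38.9% of all loci. Of the 28 with a CpG-rich start site 27 were occupied there, against 81.8% of all such genes. Of the 3 without a CpG-rich start site 0 were, against 10.6% of all such genes. The semaphorins, plexins and neuropilins had medians of fold enrichment of 3.70 and 4.58. The value in replicate 2 was above the 4.23 of the ephrin, Slit and Netrin genes and that in replicate 1 below their 3.85.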
